A study of Rattus norvegicus with 6 samples.

Results

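Sterol and fatty acid synthesis and transport were followed through 33 genes, chosen by name for their place in cholesterol synthesis, fatty acid synthesis or lipid transport, in purified rat retinal ganglion cell neurons (RGCs). Each gene was read from the probe set, a group of short array probes for 1 transcript, that had the highest mean over all 6 arrays. A probe set that names a single gene was found for 31 of the 33, out of 14217 genes named by such probe sets and 31042 probe sets in all. The array values of Hmgcs1 and Npc1 were not analysed here, and these genes enter only the promoter counts. The 31 genes fall into the mevalonate pathway (6 genes), the steps between squalene and cholesterol (10), the sterol regulators (4), fatty acid synthesis (5), and sterol and lipid transport (6).

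Cells build cholesterol from acetyl-CoA through mevalonate and squalene, and build fatty acids from the same precursor. The transcription factors SREBP1 and SREBP2 raise the genes of both routes when membranes are short of sterol. Scap carries SREBPs toward the Golgi for activation and Insig1 holds them in the endoplasmic reticulum. In brain, astrocytes pass cholesterol to neurons on particles that contain ApoE, and the liver X receptors (LXRs), which sense oxidized sterols, raise Abca1, Abcg1, Apoe and Srebf1.

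RGCs of postnatal day 6 Sprague Dawley rats were kept for 12 days in medium with BDNF and CNTF. The neurons then received, for 12 hours, either Gpc4 (glypican 4, an astrocyte-secreted heparan sulfate proteoglycan, given here as His-tagged protein made in HEK293 cells, a human embryonic kidney line) or TSP1 (thrombospondin 1, another astrocyte-secreted protein), and the Alone cells received no protein. There were 2 arrays each for Gpc4, TSP1 and Alone, and the RNA on each array came from 2 pooled wells. The methods state 2 separate cultures, and the labels number the replicates 1 and 2. Arrays of the same number were read as the same culture, called culture 1 and culture 2 here, which the labels do not state. The question posed for these members was whether either protein shifted their transcript levels. The labels name no other difference between the groups. With 2 arrays in a group the precision was limited, and only transcript levels in 2 cultures were sampled. Of 13 RGC markers 12 were measured, and all 12 lay above the median of every array.

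In the promoter windows of the members, the NF-Y and Sp1 boxes were common and the sterol regulatory core was not found. RefSeq promoter windows of assembly GRCr8, running from 250 bases before to 50 bases after the annotated start, were matched by symbol for 24 of the 33 genes. The NF-Y box (CCAAT, either strand), the site of a factor that works beside SREBPs, occurred in 17 of the 24 genes (70.8%), against 39.6% of all 27457 genes with a window and 37.5% of all 33469 windows. Of the 14 sterol synthesis genes with a window, 11 had at least 1 NF-Y box. At least 3 boxes in a window were present in 5 of the 24 genes, against 3.40% of all genes and 3.02% of all windows. The Sp1 box (GGGCGG, either strand) occurred in 21 of the 24 genes (87.5%), against 36.0% of all genes and 33.1% of all windows, and the E-box (CACGTG), which SREBPs can also bind, in 4 of 24 (16.7%), against 7.08% of genes and 6.42% of windows. The sterol regulatory core TCACNCCAC was in the windows of 0 of the 24 genes and in 1.12% of all windows. The LXR element, AGGTCA repeated after a spacer of 4 bases, was in 0 of the 24 and in 0.00598% of all windows. A gene counted where any of its windows held the element, and a match or its absence in so short a window describes only these letters.

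The windows of Mvk and Nsdhl are shown because they held the most NF-Y boxes among the members, and that of Apoe because it was the 1 member called in any contrast. Each is written 5′ to 3′ on the strand of the gene, with the NF-Y boxes of both orientations in capitals. The Mvk window lies at chr12:47819454-47819753 on the minus strand and the Nsdhl window at chrX:155817110-155817409 on the plus strand, each with 5 boxes. The Apoe window, 1 of 3 annotated for this gene, lies at chr1:88484471-88484770 on the minus strand and has 1 box.
Mvk: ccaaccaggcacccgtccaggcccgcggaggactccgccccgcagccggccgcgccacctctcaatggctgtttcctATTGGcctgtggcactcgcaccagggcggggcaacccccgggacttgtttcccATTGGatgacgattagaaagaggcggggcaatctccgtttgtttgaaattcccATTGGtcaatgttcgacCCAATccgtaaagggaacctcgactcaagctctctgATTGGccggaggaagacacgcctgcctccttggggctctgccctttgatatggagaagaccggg
Nsdhl: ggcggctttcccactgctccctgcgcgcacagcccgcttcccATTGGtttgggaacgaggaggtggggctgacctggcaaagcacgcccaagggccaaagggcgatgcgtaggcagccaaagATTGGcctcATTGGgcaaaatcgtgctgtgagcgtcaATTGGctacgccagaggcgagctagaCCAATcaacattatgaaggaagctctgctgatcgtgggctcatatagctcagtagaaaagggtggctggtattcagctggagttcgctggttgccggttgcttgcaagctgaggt
Apoe: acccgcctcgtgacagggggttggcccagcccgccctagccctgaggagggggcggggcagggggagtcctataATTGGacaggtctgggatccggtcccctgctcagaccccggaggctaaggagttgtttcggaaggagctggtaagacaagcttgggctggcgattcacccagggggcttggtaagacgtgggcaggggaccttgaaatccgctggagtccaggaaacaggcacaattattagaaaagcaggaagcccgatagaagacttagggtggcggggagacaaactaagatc

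Most members gave signals above the array medians in these cultures. Values are log2 expression as deposited, and each pair of values gives culture 1 and then culture 2. Of the 31 genes, 30 lay above the median of every array, which was 5.96 to 5.99, and 63.8% of all named genes did so. The median member had a mean of 9.85, against 7.44 for all named genes, and 26 of 31 members exceeded the 75th percentile of all probe sets, against 38.2% of named genes. Member means ran between 4.84 (Lpl) and 12.15 (Fdps). Lpl, the lipase that frees fatty acids from lipoproteins, was below the array median on all 6 arrays, and it was the 1 member that was not above all array medians. Levels of different probe sets depend on their probes and cannot be ranked as transcript amounts. In the plot of member levels the 6 arrays lie close together for most genes. Of the 31 members, 26 (83.9%) spanned less than 0.5 over all arrays, against 88.7% of all named genes.

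**Figure D1:**
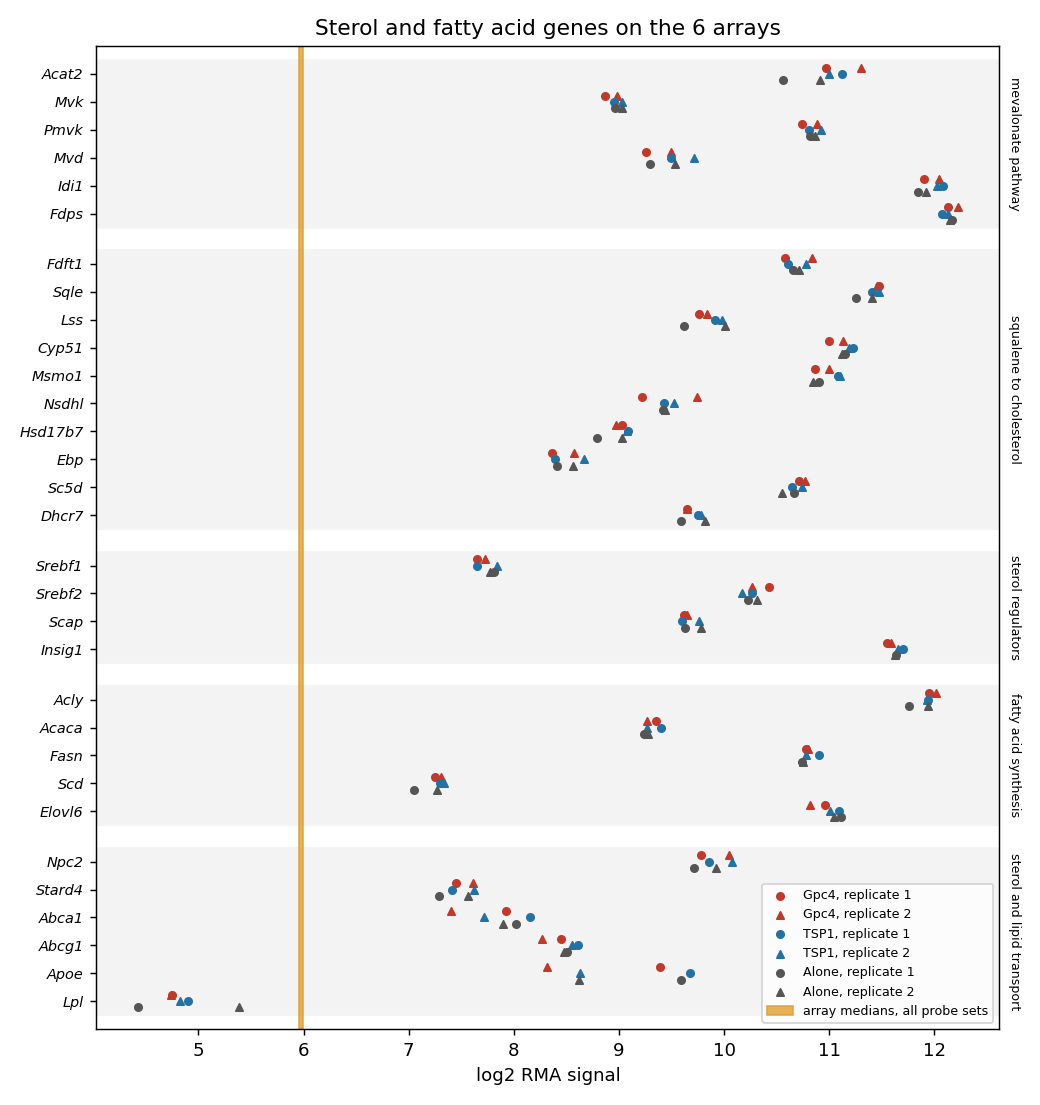
Log2 expression (horizontal axis) of the 31 measured members on each of the 6 arrays, grouped by role; colors mark Gpc4, TSP1 and Alone, and shapes mark the culture. The 6 points lie close together for most genes, while the culture 2 arrays of Apoe lie about 1 log2 unit below those of culture 1, and the Alone arrays of Lpl (4.42 and 5.39) lie apart.

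Neither protein changed a member past the test. With limma, fitted to all 31042 probe sets and read at an adjusted p under 0.05, 0 of 31 members passed for Gpc4 against Alone (0.0838% of all probe sets passed), 0 of 31 for TSP1 against Alone (0%) and 0 of 31 for Gpc4 against TSP1 (0.0612%). With the culture as a block the members called were again 0 in each comparison (0.206%, 0.0129% and 0.258% of all probe sets). At an unadjusted limma p under 0.05, 1 member passed for Gpc4 against Alone (Acat2; 6.88% of all probe sets), 1 for TSP1 against Alone (Msmo1; 4.40%) and 0 for Gpc4 against TSP1 (4.51%). In the fit with the culture block, that unadjusted threshold passed 3 (Acat2, Abca1 and Apoe), 2 (Acat2 and Msmo1) and 4 (Mvd, Abca1, Abcg1 and Apoe) members. These were 9.68%, 6.45% and 12.9% of members, against 9.44%, 6.69% and 6.62% of all probe sets. The methods' t-test at an unadjusted p under 0.05 passed 0, 1 (Msmo1) and 1 (Dhcr7) members in these comparisons (5.49%, 4.13% and 4.62% of the probe sets it could test). The comparisons with Alone share the same Alone arrays and are therefore not independent of each other.

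The member differences were small, and so were those of most genes. The median log2 difference of the members was 0.02 for Gpc4 against Alone (-0.01 over all named genes), 0.08 for TSP1 against Alone (-0.01) and -0.06 for Gpc4 against TSP1 (-0.01). Differences below 0.25 in size were found for 28, 30 and 29 of the 31 members in these comparisons, against 91.8%, 94.2% and 93.7% of all named genes. The 95% interval lay within a 2-fold change either way for 30 of 31 members in each comparison, the exception being Apoe, and within a 1.5-fold change for 27, 28 and 28. Among all named genes 98.8%, 98.9% and 98.6% lay within 2-fold and 93.1%, 94.4% and 94.1% within 1.5-fold, against 96.8% in each comparison and 87.1%, 90.3% and 90.3% of members. These intervals come from the fit without culture. With the culture as a block, 31 of 31 members lay within 2-fold in each comparison, and 14151, 14171 and 14134 of 14217 named genes. Within 1.5-fold lay 29, 30 and 30 members, and 13619, 13790 and 13722 named genes. Gpc4 and Alone arrays did not overlap for 9 members (29.0%; 35.0% of all probe sets), TSP1 and Alone arrays for 10 (32.3%; 29.8%), and Gpc4 and TSP1 arrays for 10 (32.3%; 30.2%). Both directions together, these shares lie near those of all probe sets. The members split into 5 higher and 4 lower, 9 and 1, and 1 and 9. The 14217 named genes split into 2231 and 2907, 1953 and 2334, and 2051 and 2289. For Gpc4 against TSP1, 22 of 31 members were below 0, against 7222 of 14217 named genes. The last 2 comparisons share the TSP1 arrays.

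**Figure D2:**
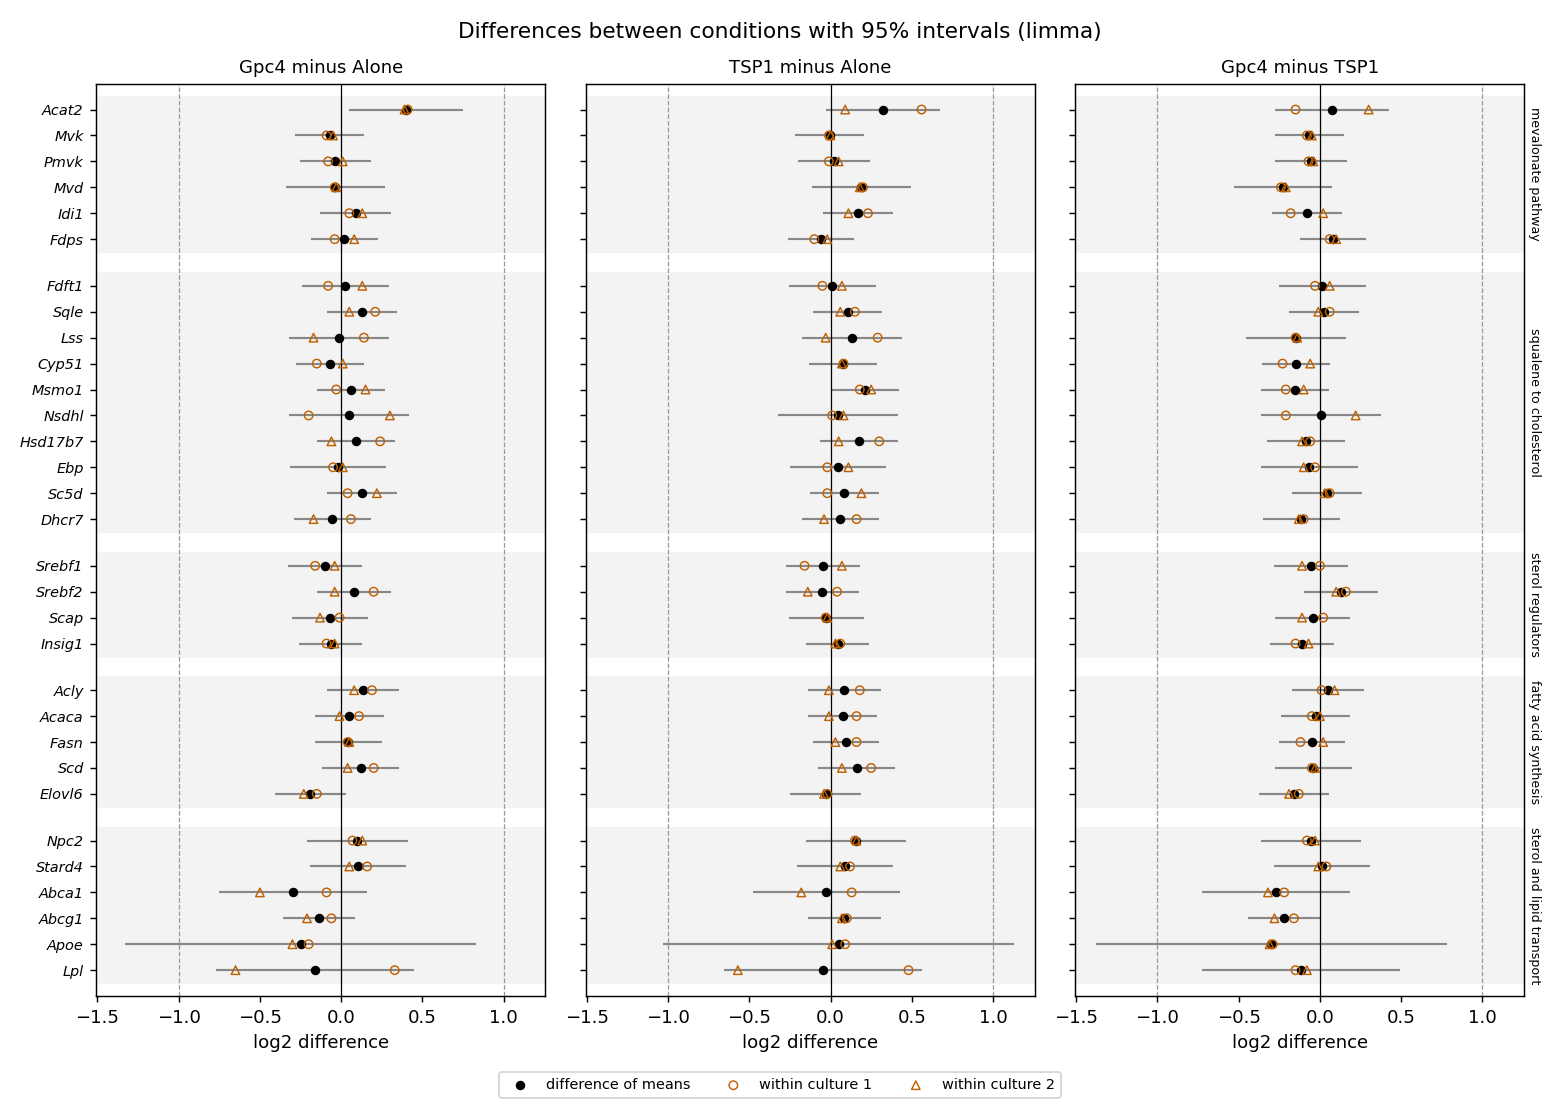
Log2 differences of the 31 members for Gpc4 minus Alone, TSP1 minus Alone and Gpc4 minus TSP1, with limma's 95% intervals as bars and the difference within each culture as open symbols. Nearly all intervals span 0 and stay within the dashed lines at a 2-fold change, and that of Apoe is the widest. The intervals come from the fit without a culture block.

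The mevalonate pathway supplies the isoprenoid units of sterols. Acat2, the thiolase that joins acetyl-CoA units at its start, read 10.97 and 11.30 on the Gpc4 arrays, 11.12 and 11.00 on the TSP1 arrays, and 10.56 and 10.91 on the Alone arrays. Every Gpc4 and TSP1 array was above both Alone arrays. The Gpc4 difference from Alone was 0.40 (SE 0.15, 95% interval 0.05 to 0.75, limma adjusted p = 0.70), with 0.41 and 0.39 in cultures 1 and 2. The TSP1 difference from Alone was 0.33 (limma adjusted p = 0.98), with 0.56 in culture 1 and 0.09 in culture 2. Acat2 had the largest upward difference among the members in both comparisons with Alone, and the lower of its Alone arrays was that of culture 1.

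Mvd, the decarboxylase that yields isopentenyl diphosphate, read 9.26 and 9.50 with Gpc4, 9.50 and 9.71 with TSP1, and 9.30 and 9.53 Alone. Its ranges overlapped in each comparison, and in every condition the culture 2 array was the higher. Within cultures the TSP1 difference from Alone was 0.20 and 0.18 and the Gpc4 difference from TSP1 was -0.24 and -0.21, so both cultures gave the same direction. The remaining 4 genes were Mvk and Pmvk (the kinases of mevalonate and of phosphomevalonate), Idi1 (isopentenyl diphosphate isomerase) and Fdps (farnesyl diphosphate synthase). They differed by -0.07 to 0.09 for Gpc4 against Alone and by -0.06 to 0.17 for TSP1 against Alone.

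The 10 genes from squalene to cholesterol differed little among conditions. Msmo1, a methylsterol oxidase that trims lanosterol, read 10.87 and 11.00 with Gpc4, 11.08 and 11.10 with TSP1, and 10.90 and 10.85 Alone. Both TSP1 arrays were above all 4 others. The TSP1 difference from Alone was 0.22 (95% interval 0.01 to 0.42, limma adjusted p = 0.98). Sc5d, a late sterol desaturase, read 10.71 and 10.77 with Gpc4, 10.65 and 10.74 with TSP1, and 10.67 and 10.55 Alone, and its Gpc4 arrays lay above its Alone arrays by 0.13 on average. On the chosen probe sets and with all arrays, the difference of TSP1 from Alone was above 0 for all 10 genes, from 0.01 for Fdft1 (squalene synthase) to the 0.22 of Msmo1, with a limma adjusted p of 0.98 or more for each, and 23 of 31 members were above 0 in this comparison, against 46.4% of all named genes. With 1 array left out the lowest values were -0.08 for Fdft1, -0.07 for Lss, -0.10 for Ebp and -0.06 for Dhcr7. Further probe sets gave -0.15 for Fdft1, -0.03 for Lss and -0.025 for Nsdhl. Those of the other genes gave 0.115 for Cyp51, 0.05 for Hsd17b7, and 0.035 and 0.27 for Sc5d. For Gpc4 against Alone the 10 genes ran, on the chosen probe sets, from -0.07 for Cyp51 (lanosterol demethylase) to 0.13 for Sqle (squalene epoxidase) and Sc5d. In this comparison 16 of 31 members were above 0, against 46.0% of all named genes. Further probe sets, all above every array median, gave 0.09 for Cyp51, -0.17 for Nsdhl, -0.135 for Fdft1, -0.065 for Lss and 0.04 for Hsd17b7. The 2 further Sc5d probe sets, about as bright as the chosen one, gave -0.055 and 0.225. The chosen probe sets of Lss (lanosterol synthase), Nsdhl and Hsd17b7 (which remove and reduce sterol groups), Ebp (a sterol isomerase) and Dhcr7 (the last reductase) stayed close to 0. They lay between -0.06 and 0.09 for Gpc4 against Alone and between 0.05 and 0.18 for TSP1 against Alone. The Cyp51 probe set is of a kind that can also match other transcripts.

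The array of Alone culture 1 stood low for these genes. It was the lowest of the 6 arrays for 13 of 31 members (41.9%), against 18.4% of all named genes, and the Gpc4 array of culture 1 was the lowest for another 9 (29.0%, against 15.0%). With the Alone array of culture 1 left out, the median difference of TSP1 from Alone was smaller in both sterol synthesis groups. Over the 10 genes from squalene to cholesterol it was 0.03, against 0.08 with all arrays. Over the 6 mevalonate genes it was 0.04, against 0.10.

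The regulators of the pathway were level across conditions. Srebf1, which encodes SREBP1, read 7.65 and 7.73 with Gpc4, 7.65 and 7.84 with TSP1, and 7.81 and 7.77 Alone. Srebf2, which encodes SREBP2, read 10.43 and 10.27 with Gpc4, 10.27 and 10.17 with TSP1, and 10.23 and 10.31 Alone. Insig1, itself a sterol-responsive target of SREBPs, read 11.55 and 11.59 with Gpc4, 11.70 and 11.66 with TSP1, and 11.64 and 11.63 Alone. Insig1 arrays did not overlap in any of the 3 comparisons, yet its differences were -0.07 for Gpc4 against Alone, 0.05 for TSP1 against Alone and -0.11 for Gpc4 against TSP1. Scap differed by -0.07, -0.03 and -0.05 in the same comparisons. The largest difference among the 4 regulators was 0.13, for Srebf2 in Gpc4 against TSP1 (limma adjusted p = 0.995).

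Among the fatty acid genes, Elovl6, which lengthens palmitate, read 10.96 and 10.82 with Gpc4, 11.09 and 11.01 with TSP1, and 11.11 and 11.05 Alone. Both Gpc4 arrays were below all 4 others. The Gpc4 difference from Alone was -0.19 (95% interval -0.41 to 0.03, limma adjusted p = 0.75) and that from TSP1 was -0.16. Scd, a desaturase that makes monounsaturated fatty acids, read 7.25 and 7.31 with Gpc4, 7.30 and 7.34 with TSP1, and 7.05 and 7.27 Alone, so only the culture 1 Alone array stood apart. On the chosen probe sets, Acly, which supplies cytosolic acetyl-CoA, Acaca (acetyl-CoA carboxylase) and Fasn (fatty acid synthase) differed by 0.05 to 0.14 for Gpc4 against Alone. For TSP1 against Alone they differed by 0.08 to 0.10. The second Fasn probe set, above every array median, gave -0.065 and -0.03 in these comparisons, and a dim second Acaca probe set gave 0.17 and 0.02.

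The transport genes included the members with the widest intervals. Abca1, which exports cholesterol to apolipoproteins, read 7.93 and 7.40 with Gpc4, 8.15 and 7.72 with TSP1, and 8.02 and 7.90 Alone. The low value in culture 2 with Gpc4 gave a difference from Alone of -0.50 in that culture and of -0.09 in culture 1, with a mean of -0.30 (95% interval -0.75 to 0.16, limma adjusted p = 0.82). The 3 further Abca1 probe sets, all below every array median, differed by -0.40, -0.09 and -0.23 in this comparison, with limma adjusted p values of 0.56, 0.93 and 0.79.

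Abcg1, a second exporter of sterols, read 8.45 and 8.27 with Gpc4, 8.61 and 8.55 with TSP1, and 8.51 and 8.48 Alone. Its 2 Gpc4 arrays were the lowest and its 2 TSP1 arrays the highest. The Gpc4 difference from TSP1 was -0.22 (95% interval -0.44 to 0.003, limma adjusted p = 0.995). The members named above as raised by LXRs, Abca1, Abcg1, Apoe and Srebf1, differed by -0.30, -0.14, -0.25 and -0.10 for Gpc4 against Alone, none past the test. In this comparison 15 of 31 members were below 0, as were 7415 of 14217 named genes. Further probe sets, none above every array median, gave -0.305 and 0.06 for Abcg1, -0.055 for Apoe and -0.025 for Srebf1. A shared response of these genes was not tested, and they are not a full list of genes that LXRs raise. Of the 5 fatty acid synthesis members, 4 were above 0 and 1 below for Gpc4 against Alone, with 0.12 for Scd and 0.045 for Fasn. For TSP1 against Alone Abca1, Abcg1, Apoe and Srebf1 differed by -0.03, 0.09, 0.05 and -0.05 on the chosen probe sets.

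Npc2, which carries cholesterol out of lysosomes, read 9.78 and 10.05 with Gpc4, 9.86 and 10.08 with TSP1, and 9.71 and 9.92 Alone. Every condition was higher in culture 2, by 0.23 on average, and this exceeded the difference between any 2 conditions. Stard4, a carrier of sterol between membranes, differed by 0.11 for Gpc4 against Alone and 0.09 for TSP1 against Alone. Lpl read 4.75 and 4.74 with Gpc4, 4.90 and 4.82 with TSP1, and 4.42 and 5.39 Alone, with both extremes on the Alone arrays.

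Apoe was the member that differed most between arrays, and it followed the culture. It read 9.39 and 8.32 with Gpc4, 9.68 and 8.63 with TSP1, and 9.59 and 8.62 Alone, in cultures 1 and 2. Every culture 2 array was below every culture 1 array. Culture 2 was below culture 1 by 1.07 in Gpc4 cells, 1.05 in TSP1 cells and 0.97 in Alone cells. The mean difference of culture 2 from culture 1 was -1.03 (SE 0.07, 95% interval -1.19 to -0.87, limma adjusted p = 0.0016), which is a 2.04-fold lower level. Apoe was the 1 member of 31 called between cultures, where 0.561% of all probe sets were called in either direction and 0.129% as lower in culture 2. Without any 1 array the difference stayed between -1.06 and -1.01, but the limma adjusted p was then 0.47 to 0.71 and no probe set passed. A second, dim Apoe probe set, with a mean of 3.63, differed by 0.11 between cultures.

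In the fit without culture, the Gpc4 difference of Apoe from Alone was -0.25 (SE 0.46, limma adjusted p = 0.95). That SE includes the difference between cultures. Within cultures it was -0.20 and -0.30, and with the culture as a block its limma adjusted p was 0.44. Fewer cells of a type and less RNA per cell cannot be told apart in such bulk RNA.

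Apoe is abundant in astrocytes, microglia and macrophages, and marker lists of these and other cells were compared between cultures. All 10 microglia and macrophage markers had mean differences below 0 for culture 2 against culture 1, and limma called 3 of them, C1qa, C1qb and Tyrobp, with differences of -0.99, -1.09 and -0.95. Their summed linear signal was 333 to 380 on culture 2 arrays and 483 to 625 on culture 1 arrays, and 4 of the 10 were below the median of every array. The 11 measured astrocyte and Müller glia markers summed to 1948 to 2231 in culture 2 and 1460 to 1980 in culture 1, with 1 called as higher (Gja1, by 1.12), but 6 of the 11 had differences below 0, the median was -0.06, and 7 were below every array median. Of 7 oligodendrocyte lineage markers 0 were called and 6 were below 0, with a median of -0.12. The 6 endothelial markers had 0 called and 4 below 0, with a median of -0.08. The 9 photoreceptor, bipolar and amacrine markers had 1 called as higher and 6 below 0, with a median of -0.12. At an unadjusted limma p under 0.05, 3 of the 6 and 4 of the 9 passed, and 8 of the 10 microglia and macrophage markers. So did 7 of 9 fibroblast and mural, 2 of 11 astrocyte and Müller glia, 1 of 7 oligodendrocyte lineage and 1 of 12 RGC markers. Over all probe sets 11.3% passed at this threshold, and 0.561% were called at the adjusted one. The 9 fibroblast and mural markers summed to 1875 to 2119 in culture 2 and 1303 to 1341 in culture 1, with 2 called as higher (Dcn and Lum). Of these 9 markers 7 were above 0 and 2 below, with a median of 0.57. RGC markers summed to 80951 to 81523 in culture 2 and 81408 to 82333 in culture 1, with 0 called. The part of these cells in the Apoe difference was not tested.

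**Figure D3:**
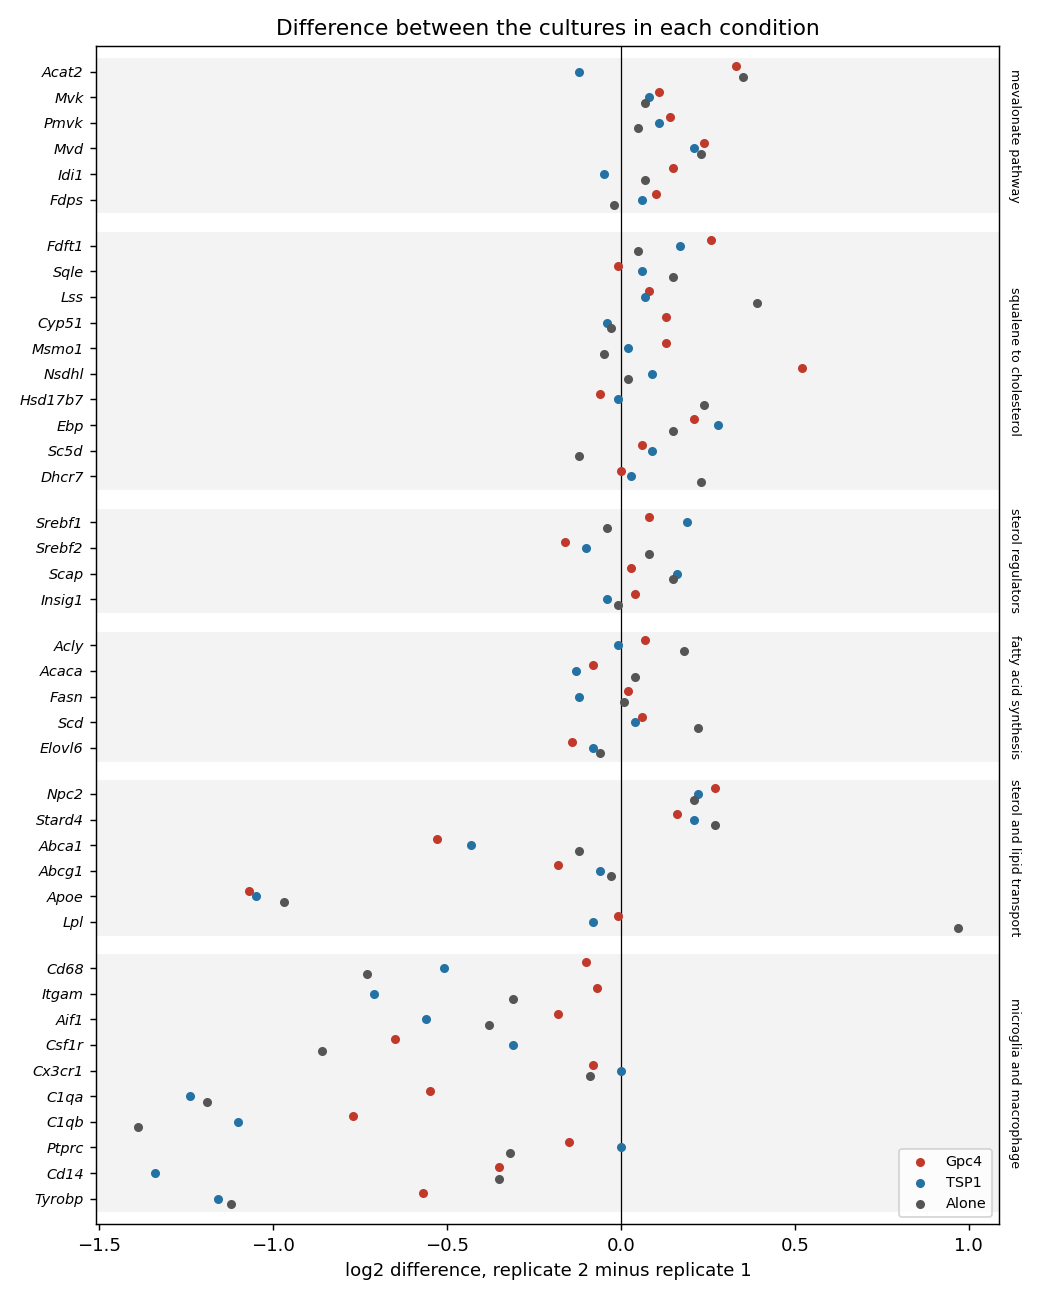
Log2 difference of culture 2 minus culture 1 (horizontal axis) within Gpc4, TSP1 and Alone cells, 1 point each, for the 31 members by role and, at the bottom, 10 microglia and macrophage markers. Apoe lies near -1 in all 3 conditions, most other members scatter around 0, and the markers lie at or below 0.

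The other members differed less between cultures. At an unadjusted limma p under 0.05, 6 of 31 members passed (11.3% of all probe sets), namely Apoe, Abca1, Mvd, Ebp, Npc2 and Stard4. Abca1 was the next in size, at -0.36 (limma adjusted p = 0.23). All 16 genes of the mevalonate and squalene groups had differences above 0, from 0.01 for Sc5d to 0.23 for Mvd, with a median of 0.09, and 49.6% of all named genes were above 0. None of the 16 passed the adjusted test.

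The wider pathway was read from 94 further genes, of which 82 were measured. Limma called 0 of 82 in each of the 3 comparisons, and at an unadjusted p under 0.05 there were 8 for Gpc4 against Alone (9.76%, against 6.88% of all probe sets), 3 for TSP1 against Alone (3.66%, against 4.40%) and 3 for Gpc4 against TSP1 (3.66%, against 4.51%). The methods' t-test passed 3, 2 and 3 (5.49%, 4.13% and 4.62% of all probe sets it could test), and the fit with a culture block called 0. At an unadjusted p that blocked fit passed 8, 6 and 3 (9.76%, 7.32% and 3.66%, against 9.44%, 6.69% and 6.62% of all probe sets). The median difference for Gpc4 against Alone was -0.02 over 5 other sterol synthesis genes, -0.03 over 11 other sterol regulators, -0.03 over 7 lipoprotein uptake genes, -0.03 over 18 genes of sterol storage, efflux and turnover, -0.03 over 29 other fatty acid genes and 0.00 over 12 genes of fatty acid oxidation. The same medians for TSP1 against Alone lay between -0.06 and 0.02.

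The pathway genes of smallest p are given by value, none being past the test. For Gpc4 against Alone these were Elovl1, a fatty acid elongase (0.30), Stard5, a sterol carrier (0.34), Lrp1, a lipoprotein receptor that binds ApoE (-0.27), and Dgat2, which makes triglycerides (-0.33). Acsl3, which activates fatty acids, read 10.15 and 10.44 with Gpc4, 10.34 and 10.26 with TSP1, and 9.80 and 10.04 Alone. All 4 protein-treated arrays exceeded both Alone arrays, by 0.38 on average for Gpc4 and for TSP1 (limma adjusted p = 0.66 and 0.98). Stard5 (0.38) and the dim probe sets of Apod, an apolipoprotein (-0.41), and Angptl4, an inhibitor of Lpl (-0.36), had the other smallest p values for TSP1 against Alone.

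Angptl4 gave the widest pathway difference between the proteins. It read 5.20 and 5.69 with Gpc4, 4.82 and 4.79 with TSP1, and 4.99 and 5.33 Alone. The Gpc4 difference from TSP1 was 0.64 (95% interval 0.24 to 1.04, limma adjusted p = 0.79), and every value lay below the array medians. Sorl1, a sorting receptor for lipoproteins and membrane proteins, differed by 0.34 in this comparison, Thrsp, a lipogenic factor, by -0.23, and Fabp7, a fatty acid binding protein of glia, by -0.20.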

How the data were processed

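RNA of RGC cultures was hybridized to 6 Affymetrix Rat Genome 230 2.0 arrays, 2 per condition. The deposited log2 values were made by the authors in Affymetrix Expression Console, whose version is not given in the sources used here. They are RMA values, background-corrected, normalized between arrays and summarized per probe set. RMA compresses differences of dim probe sets, and rounding to 2 decimals blurs differences near 0.01. There are no detection calls. The study's supplementary table of linear values was not used.

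No further normalization or filter was applied. Of 31042 probe sets, 20826 name 1 gene in the platform annotation, 436 several (not named) and 9780 none. R 4.3.3 with limma 3.58.1 (functions lmFit and eBayes) fitted a mean for each condition over the 6 arrays, leaving 3 residual degrees of freedom. Tests were two-sided, with Benjamini-Hochberg adjustment across every probe set and a threshold of 0.05. Cultures were compared in the same model with the culture added, with 2 residual degrees of freedom. The script was tested on simulated data.

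The replicate number was taken as the culture, since the methods state 2 separate cultures. The labels do not say that arrays of the same number share a culture, so another difference between the replicates cannot be told apart from the culture. Differences between same-numbered arrays correlated across probe sets at 0.37 (Gpc4 and TSP1), 0.29 (Gpc4 and Alone) and 0.35 (TSP1 and Alone). The number was therefore also fitted as a block.

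All measured members were named. Their values on every array are given, in each role group, for those past the threshold or otherwise of smallest p in each comparison. Of the pathway genes, those past the threshold were named, or otherwise the 2 of smallest p in each direction and comparison. Members and lists were chosen with earlier results of these data known. Promoter windows came from RefSeq (GRCr8). Alternatives tried were quantile normalization or median centring of the arrays, a filter at a mean of 6 or more, the replicate block alone or with that filter, a fit of the compared groups only, trended variances, unadjusted p, the methods' t-test (raw or Benjamini-Hochberg), averaging a gene's probe sets, and omission of each array in turn.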

Additional observations from a re-analysis of the deposited data

How the results depend on the processing

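No member was called in the 3 comparisons of conditions by limma under any alternative with an adjusted p. At an unadjusted limma p, 1 member passed for Gpc4 against Alone, 1 for TSP1 against Alone and 6 for culture 2 against culture 1. With the replicate block, 3, 2 and 4 members passed at an unadjusted p in the 3 comparisons of conditions. The methods' t-test, unadjusted, passed 1 for TSP1 against Alone and 1 for Gpc4 against TSP1. Of the pathway genes, 8, 3 and 3 passed at an unadjusted limma p and 3, 2 and 3 by that t-test. With each array left out in turn, 0 to 0 members were called between cultures and the calls over all probe sets there numbered 0 to 0, so the Apoe call was lost each time, with 1 residual degree of freedom left. With the mean over both Apoe probe sets the difference between cultures was -0.46 (limma adjusted p = 0.014).

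The number of probe sets called for Gpc4 against Alone was 26, and became 64 with the replicate block, 90 with the block and a mean of at least 6, 13 with only the 2 groups, 49 with a trended variance, 1704 by the t-test (0 after Benjamini-Hochberg), 2136 at an unadjusted p and 2 to 13 without 1 array. For TSP1 against Alone it was 0, and became 4 with the replicate block, 8 with the block and that filter, 1280 by the t-test, 1367 unadjusted and 0 to 1 without 1 array. For Gpc4 against TSP1 it was 19, and became 31 with the filter alone, 80 with the replicate block, 100 with both, 39 with a trended variance, 1433 by the t-test (0 after Benjamini-Hochberg), 1401 unadjusted and 2 to 13 without 1 array. Between cultures it was 174, and became 264 with a trended variance and 3510 unadjusted. At an adjusted p, the replicate block changed no call of a member.

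The median difference of the mevalonate genes for Gpc4 against Alone was -0.01 and ran from -0.0675 to 0.0775 without 1 array, the highest without Gpc4 replicate 1. That of the regulators for Gpc4 against TSP1 was -0.05 and ran from -0.1075 to 0.0375, the highest without TSP1 replicate 2. Of 154 single-gene differences, 56 changed sign under at least 1 alternative, the largest of them 0.30 in size, and 0.07 where no array was left out. None of these was past the threshold. With 2 arrays a group, the 95% intervals of 3 or 4 members in each comparison reached past a 1.5-fold change in the fit without a block. Values below the array medians, such as those of Lpl, have no detection call.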

Other observations

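Of the 31 members, 18 had 24 further probe sets, of which 11 lay above every array median. None of the 24 passed the limma threshold in the comparisons of conditions or between cultures. The TSP1 array of culture 2 was the highest of the 6 arrays for 10 members (32.3%, against 18.1% of all named genes) and the TSP1 array of culture 1 for 9 (29.0%, against 16.7%). Among the 16 genes of the mevalonate and squalene groups, 14 had differences above 0 for TSP1 against Alone (46.4% of all named genes) and 9 for Gpc4 against Alone (46.0%), with the same Alone arrays in both.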
